A study of Mus musculus with 12 samples.

Results

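Tpmt, 1110018G07Rik, Trnp1, Colec11, Lrrc32, Greb1 and Thsd4 are 7 genes, of 23337 in both count tables, that were chosen by their levels: they were listed because they were higher in Stag2-KO than in Stag2-WT mouse urothelium at 1 month. The 1 month contrast therefore describes the choice, and the 7 genes have no p-value for it here, while the 1 week contrast is the one the choice did not use. The study profiled RNA of peeled urothelium, the lining of the bladder, in 12 libraries of 3 mice per genotype and time. Stag2-WT and Stag2-KO mice were both fed a diet with TMX, the usual short form of tamoxifen, for a week and were killed 1 week or 1 month after that feeding began, so WT and KO mice alike received the drug. The Cre driver, the sex and the age of the mice are not given in the sources used here. Batch 1 holds all of the 1 week libraries, batch 2 holds replicates 1 and 2 of each genotype at 1 month, and batch 3 holds replicate 3 of each genotype at 1 month. Time and batch therefore cannot be told apart, while each batch holds both genotypes.

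Stag2 belongs to cohesin, a ring-shaped protein complex that keeps sister chromatids paired and folds chromatin into loops. The 7 genes share no single pathway. Tpmt is a cytosolic enzyme that methylates thiopurine drugs. 1110018G07Rik, which RefSeq and GENCODE name Arel1, is an E3 ubiquitin ligase that marks released antagonists of the inhibitor of apoptosis proteins for degradation. Trnp1 is a nuclear protein of neural progenitors, best known for its part in the growth of the cerebral cortex. Colec11 is a soluble collagen-like lectin that binds sugars on microbes and, with the Masp proteases, starts the lectin pathway of complement. Lrrc32, also called GARP, holds latent TGF-beta on the cell surface and is known from regulatory T cells, platelets and endothelium. Greb1 is an estrogen-induced cofactor of the estrogen receptor. Thsd4 is a secreted ADAMTS-like protein that binds fibrillin-1 microfibrils of the extracellular matrix.

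The promoters of 4 of these genes are shown so that the start regions of genes that were higher together in the KO at 1 month can be compared. Each run is 300 bases from RefSeq on GRCm38.p6, with 250 bases before the start site and 50 from it on, read on the minus strand, on which all 4 genes lie. Capitals mark every match to a searched motif, on either strand. The Tpmt window is chr13:47043168-47043467, the Trnp1 window chr4:133498501-133498800, the Colec11 window chr12:28623281-28623580 and the Greb1 window chr12:16800837-16801136.
Tpmt: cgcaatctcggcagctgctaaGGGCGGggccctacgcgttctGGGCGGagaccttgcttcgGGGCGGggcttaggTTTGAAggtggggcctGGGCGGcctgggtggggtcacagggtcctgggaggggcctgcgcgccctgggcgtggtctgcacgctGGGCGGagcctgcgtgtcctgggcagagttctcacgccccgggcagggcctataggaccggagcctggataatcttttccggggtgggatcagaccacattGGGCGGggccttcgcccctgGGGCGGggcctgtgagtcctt
Trnp1: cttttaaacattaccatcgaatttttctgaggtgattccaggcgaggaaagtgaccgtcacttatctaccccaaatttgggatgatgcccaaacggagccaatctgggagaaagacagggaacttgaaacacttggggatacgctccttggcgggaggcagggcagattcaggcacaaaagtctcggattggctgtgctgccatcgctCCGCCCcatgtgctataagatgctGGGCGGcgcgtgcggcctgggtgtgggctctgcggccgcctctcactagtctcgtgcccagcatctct
Colec11: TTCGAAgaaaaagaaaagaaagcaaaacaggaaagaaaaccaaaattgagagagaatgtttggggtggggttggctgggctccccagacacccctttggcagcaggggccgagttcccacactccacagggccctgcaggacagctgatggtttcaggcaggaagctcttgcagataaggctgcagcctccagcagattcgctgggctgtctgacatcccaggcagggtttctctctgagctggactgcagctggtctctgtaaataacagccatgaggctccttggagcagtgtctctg
Greb1: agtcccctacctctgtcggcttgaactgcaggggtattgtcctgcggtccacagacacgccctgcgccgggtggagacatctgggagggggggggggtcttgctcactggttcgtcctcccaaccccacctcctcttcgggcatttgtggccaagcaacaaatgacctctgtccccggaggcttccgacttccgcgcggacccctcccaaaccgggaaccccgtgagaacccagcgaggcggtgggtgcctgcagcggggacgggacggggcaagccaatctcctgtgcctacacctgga
The motifs searched were the E2F cores TTTCGCGC and TTTGGCGC, the cell cycle homology elements TTTGAA and TTCGAA, the palindromic estrogen response element, the E-box CACGTG, the TATA box TATAAA and the GC box GGGCGG, the last of which was added after the sequences were seen. None of the motifs contains another. The Tpmt window held 22 CpG dinucleotides, against a median of 7 over all 32851 promoter windows, with 7 GC boxes and 1 TTTGAA. The Trnp1 window held 16 CpG and 2 GC boxes, the Greb1 window 19 CpG and no match to any of the motifs, and the Colec11 window 3 CpG and 1 TTCGAA at its far end. Over all promoter windows TTTGAA was present in 17.9%, TTCGAA in 1.56%, GGGCGG in 35.7% and TATAAA in 13.6%.

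The table matched 6 of the 7 genes, with 8 windows in all, and Lrrc32 was not among them. TTTGAA was found in 3 of the 8 windows, TTCGAA in 1, GGGCGG in 3 and TATAAA in 1. The TTTGAA matches were in the Tpmt window, the 1110018G07Rik window and a second Greb1 window. Neither E2F core, which all promoters held at 0.323% and 0.514%, was found in any of the 8, nor was the estrogen response element (0.070% of all promoters) or CACGTG (7.15%). The start sites of the Trnp1 and Greb1 windows shown are the GENCODE starts of these genes, and that of the Colec11 window lies 47 bases from its GENCODE start. The Tpmt start lies 1520 bases inside the GENCODE gene. The 1110018G07Rik window lies 23977 bases inside that gene, the second Greb1 window 43647 bases inside Greb1, and those of Thsd4 lie 11011 and 380826 bases inside Thsd4. These are internal starts and are not printed.

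Counts per library came from 3′ end sequencing, in which each read comes from the end of a polyadenylated transcript. The reads carry no molecular identifiers, so the counts are of reads and not of transcripts. Levels are given as counts per 1000000 (CPM) scaled by the TMM method over all 12 libraries. Totals ran from 5580961 to 9497088 counts, so 3 counts correspond to 0.324 to 0.587 CPM. Stag2 itself was at 121.5, 106.3 and 162.0 CPM in the WT and 75.9, 59.7 and 65.3 CPM in the KO at 1 week, and at 58.9, 60.1 and 46.2 CPM in the WT and 38.4, 37.2 and 19.8 CPM in the KO at 1 month. The KO was below the WT in every library at each time, with Stag2 log2 fold changes of −0.89 (SE 0.27, edgeR adjusted p = 0.198) and −0.88 (SE 0.22, edgeR adjusted p = 0.0507). Luminal markers (11 genes, summed CPM 10397 to 30494) and basal markers (10 genes, 3149 to 7896) of urothelium were detected in every group, and fibroblast markers summed to 3783 to 13413 CPM. At 1 month the genotypes did not overlap in either sum: luminal markers were at 16634 to 30494 CPM in the WT and 12257 to 15990 CPM in the KO, with 1 of 11 above 0, and basal markers at 3149 to 4562 and 4739 to 7024 CPM, with 5 of 9 above 0. The basal gap was mostly that of Krt15, at 2918 CPM in the WT and 4465 CPM in the KO on average, and Krt5, at 272 and 644 CPM. Trp63, Lamb3 and Shh were also above 0, and Itga6, Itgb4, Col17a1 and Dst were below 0. Krt20 was the 1 luminal marker called lower, no basal marker was called (Krt5 had a log2 fold change of 1.44 with an edgeR adjusted p = 0.0505), and the part of this shift in the values of the 7 genes was not tested. KO replicate 3 of 1 week stood apart, with rank correlations of 0.726 to 0.829 with the other 5 libraries of that time, against up to 0.986 among the others. Xist was at most 13 counts in the WT and 6392 to 10406 counts in the KO at 1 week, while Y-linked counts were 1360 to 2140 in the WT and 0 to 4 in the KO, so genotype and sex chromosome cannot be told apart at that time. At 1 month only KO replicate 3 carried Xist RNA (7764 counts) with 0 Y-linked counts, and the WT library of the same batch had 11 Xist and 945 Y-linked counts. Genotype and sex chromosome therefore cannot be told apart within batch 3 either, and batch 2 alone compares the genotypes without that split. All 7 genes are autosomal.

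The 1 month fit covered 12139 genes, and 269 of them (2.22%) had an edgeR adjusted p under 0.05, 121 higher (0.997%) and 148 lower in the KO. All 7 genes were among the 121, which follows from how they were picked. For the same reason all 7 had a log2 fold change above 0 (49.6% of all genes), 6 of the 7 had every KO library above every WT library (6.88% of all genes), and 5 had their lowest KO library of 1 month above the other 9 libraries (1.88% of all genes). By size of the log2 fold change they ran from rank 3 (Tpmt) to rank 53 (Thsd4) of the 121. The calls over all genes depended on the fit, and batch 2 alone, fitted without a batch term, gave 1474 calls. Without the batch term, or with it but 1 spread estimated over all 12 libraries, edgeR called 0 of 12139 and 0 of 13122 genes. These 2 fits had 919 and 1180 genes at an unadjusted p under 0.05. In them the log2 fold changes of the 7 genes lay between 1.45 (Thsd4) and 2.82 (Tpmt) without the batch term and between 1.42 and 2.82 with the shared spread. With library size alone as the scaling the median of all genes shifted from −0.01 to 0.22, and 456 of 561 calls were higher (81.3%, against 45.0% with TMM). In bulk tissue, more cells of a type and more RNA per cell cannot be told apart for any of the values that follow.

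**Figure D1:**
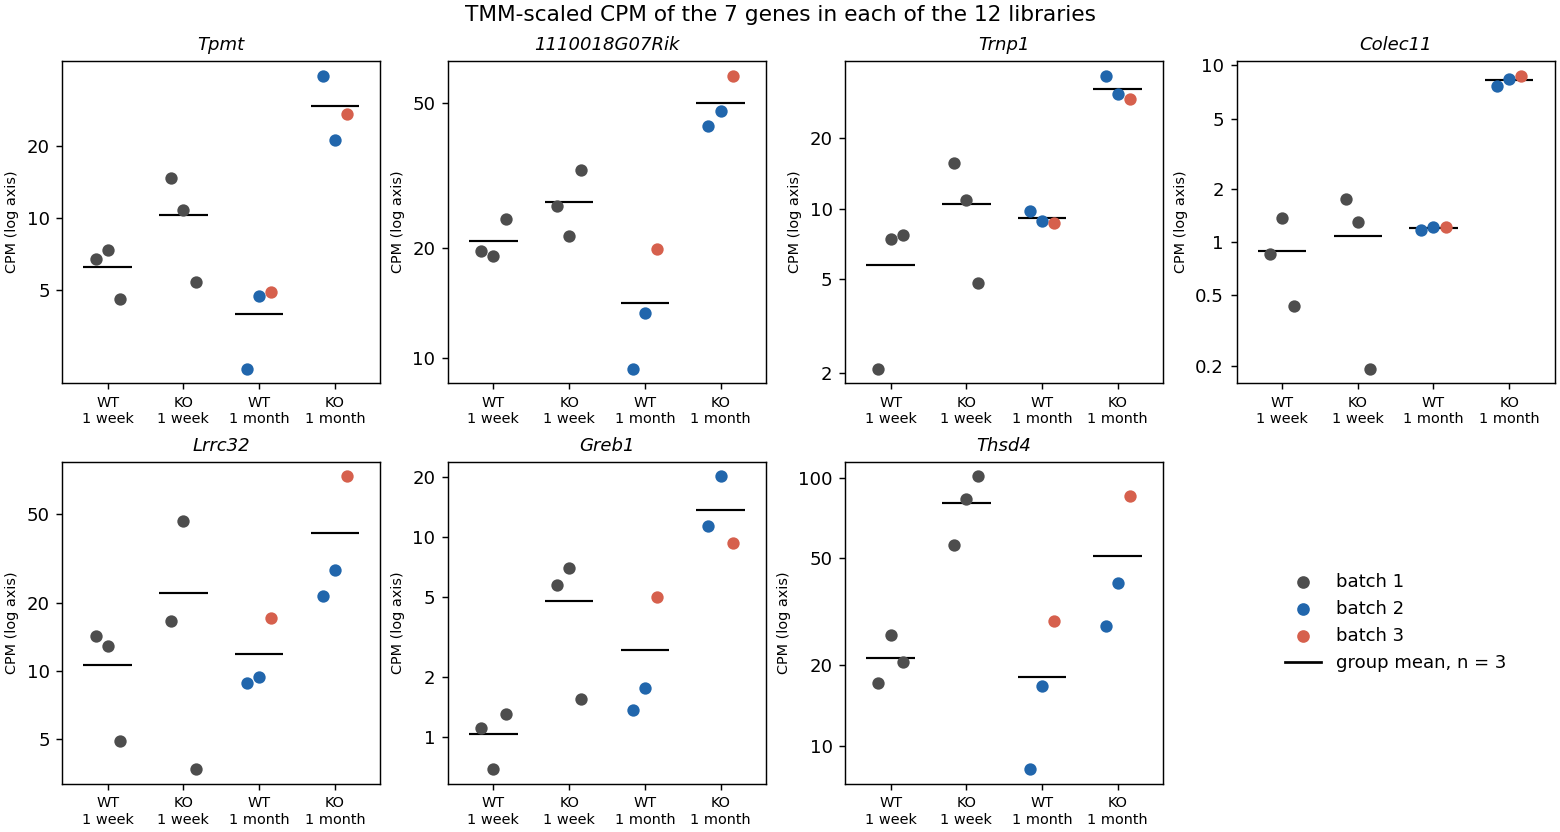
TMM-scaled CPM (log axis) of each of the 7 genes in the 12 libraries, by genotype and time, with points coloured by batch and bars at the mean of 3 libraries. The KO libraries of 1 month lie above all WT libraries of that time for every gene except Thsd4, and for Thsd4 the genotypes separate within each batch.

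Tpmt had the largest fitted fold change of the 7 genes at 1 month, although Greb1 was higher within batch 2 and Colec11 within batch 3. The gene lies at chr13:47022482-47044737 on the minus strand of GRCm38 and overlaps Kdm1b on the other strand. In the WT of 1 month its level was 2.35, 4.72 and 4.88 CPM (12, 27 and 32 counts), and in the KO it was 39.3, 21.2 and 27.2 CPM (315, 130 and 174 counts). The lowest KO library was thus above every one of the other 9 libraries. Tpmt was 7.05-fold higher, a log2 fold change of 2.82 (SE 0.35), and within batches 2 and 3 it was 3.01 and 2.41. At 1 week the WT was at 6.75, 7.34 and 4.57 CPM and the KO at 14.7, 10.8 and 5.39 CPM. The WT and KO ranges of 1 week overlapped, since KO replicate 3 was below 2 WT libraries, and the log2 fold change of 0.77 (SE 0.46) did not pass (edgeR adjusted p = 0.447). Its interval of 2 SE ran from −0.15 to 1.69. Group means ran from 3.98 ± 1.42 (SD, n = 3) in the WT of 1 month through 6.22 ± 1.46 and 10.3 ± 4.66 in the WT and KO of 1 week to 29.2 ± 9.19 in the KO of 1 month, and only the last step was free of overlap.

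No call was made among the genes around thiopurine methylation. Of 19 tested genes of purine salvage, thiopurine handling and small-molecule methylation other than Tpmt, 0 passed at 1 month (edgeR, against 2.22% of all genes) and 0 at 1 week (against 0.0627%), with median log2 fold changes of 0.27 and −0.03. In lists of this length 0 or 1 call is near that background, so for this list and those that follow the counts of calls are no result about the list. Hprt, which turns thiopurines into their active nucleotides, had log2 fold changes of 0.76 (SE 0.32, edgeR adjusted p = 0.190) at 1 month and −0.45 (SE 0.43, edgeR adjusted p = 0.627) at 1 week.

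1110018G07Rik (Arel1) was the second gene with a wide gap at 1 month and overlapping groups at 1 week. It lies at chr12:84918148-84970900 on the minus strand and overlaps Fcf1 and Gm17139 on the other strand. Its level was 9.39, 13.3 and 19.97 CPM in the WT and 43.1, 47.5 and 59.3 CPM in the KO of 1 month. Every KO library was above the other 9 libraries, and in both genotypes replicate 3, of batch 3, was the highest. It was 3.47-fold higher in the KO, a log2 fold change of 1.80 (SE 0.24), with 1.99 and 1.56 within batches 2 and 3. At 1 week the WT was at 19.6, 19.0 and 24.1 CPM and the KO at 26.1, 21.6 and 32.7 CPM. These ranges overlapped, and the log2 fold change of 0.43 (edgeR adjusted p = 0.517, SE 0.30) did not pass. The WT mean was 20.9 ± 2.74 CPM at 1 week and 14.2 ± 5.35 CPM at 1 month (SD, n = 3), with overlapping ranges, while the KO mean was 26.8 ± 5.61 and 49.99 ± 8.37 CPM without overlap. Time and batch are the same split here. Among 17 tested genes of the inhibitor of apoptosis network 0 passed at 1 month (2.22% of all genes, list median −0.18), and among 18 tested at 1 week 0 passed (0.0627% of all genes, list median 0.21). Diablo, one of the antagonists that Arel1 is known to mark for degradation, had log2 fold changes of 0.15 (SE 0.21) and −0.10 (SE 0.42).

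Trnp1 had the tightest groups of the 7 genes after Colec11 at 1 month. It lies at chr4:133491100-133498550 on the minus strand and overlaps no other gene of the types searched. These were protein-coding, lincRNA, antisense and processed transcript genes. The level of Trnp1 was 9.78, 8.91 and 8.69 CPM in the WT and 36.9, 30.7 and 29.5 CPM in the KO of 1 month. Every KO library was above the other 9 libraries. The KO was 3.43-fold higher, a log2 fold change of 1.78 (SE 0.24), and the values within batches 2 and 3 were 1.82 and 1.73. At 1 week the WT was at 2.09, 7.45 and 7.73 CPM and the KO at 15.6, 10.9 and 4.81 CPM. The KO replicates 1 and 2 were above all WT libraries and replicate 3 was inside the WT range. This gave a 1 week value of 0.91 on the log2 scale (SE 0.62, edgeR adjusted p = 0.499), which did not pass, and its interval of 2 SE ran from −0.32 to 2.14. Of 19 tested genes of the BAF chromatin remodelling complex and other partners listed for Trnp1, 0 passed at either time (2.22% and 0.0627% of all genes), with medians of −0.06 at 1 month and 0.16 at 1 week. Tmf1, whose protein was found to bind Trnp1, had log2 fold changes of −0.38 (SE 0.22) and −0.05 (SE 0.25).

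Colec11 was close to the detection limit in 9 libraries and clearly counted in the other 3. It lies at chr12:28594173-28623377 on the minus strand and overlaps no other gene of the types searched. At 1 month it had 6, 7 and 8 counts in the WT (1.17, 1.22 and 1.22 CPM) and 61, 51 and 56 counts in the KO (7.60, 8.33 and 8.74 CPM). All 3 KO libraries were above the other 9 libraries, and the log2 fold change was 2.70 (SE 0.42), or 6.51-fold. At 1 week it had 7, 12 and 4 counts in the WT and 13, 12 and 1 counts in the KO, which is 0.859, 1.38 and 0.435 CPM against 1.75, 1.29 and 0.193 CPM. The ranges overlapped from end to end, KO replicate 3 being under the level of 3 counts. At 1 week Colec11 had a log2 fold change of 0.36 (edgeR adjusted p = 0.837, SE 0.79), with an interval of 2 SE from −1.21 to 1.94, and it turned to −0.045 without WT replicate 3 and to −0.10 without KO replicate 1. At this depth neither a rise nor its absence at 1 week can be read from Colec11.

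Other genes of the lectin and complement route gave 1 call. Of 12 tested at 1 month, 1 passed and was higher (0.997% of all genes), 4 were above 0 and the median was −0.10. Of 11 tested at 1 week 0 passed (0.0627% of all genes), 9 were above 0 and the median was 1.02. The gene that passed was Serping1, the C1 inhibitor that also restrains the Masp proteases, at 413 ± 354 CPM in the WT and 980 ± 668 CPM in the KO (SD, n = 3), with a log2 fold change of 1.31 (edgeR adjusted p = 0.0315, SE 0.28). Masp1, the protease partner of Colec11, had 0 to 3 counts per library and was not tested. Masp2 was at 5.68 ± 4.29 CPM in the WT and 0.651 ± 0.995 CPM in the KO of 1 month, or −3.06 on the log2 scale (SE 1.01, edgeR adjusted p = 0.132).

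Lrrc32 varied most between libraries of a group at 1 week. It lies at chr7:98489283-98502181 on the plus strand and overlaps no other gene of the types searched. Its level was 8.80, 9.44 and 17.2 CPM in the WT and 21.4, 28.1 and 73.2 CPM in the KO of 1 month. Replicate 3 was the highest in both genotypes, and the KO was above the WT in every library. The KO was 3.08-fold higher (log2 fold change 1.62, SE 0.26), with 1.40 within batch 2 and 2.07 within batch 3. At 1 week the WT was at 14.2, 12.8 and 4.90 CPM and the KO at 16.7, 46.2 and 3.66 CPM. KO replicate 2 was the highest and KO replicate 3 the lowest of the 6 libraries, so the KO range enclosed that of the WT. Its 1 week value of 1.10 on the log2 scale (SE 0.83, edgeR adjusted p = 0.543) rested on KO replicate 2 and was −0.065 without it.

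Markers of the cell types in which Lrrc32 is known were read beside it. The 9 endothelial markers summed to 250 to 296 CPM in the WT and 320 to 531 CPM in the KO at 1 month, and to 237 to 291 CPM and 394 to 535 CPM at 1 week, so the KO was above the WT at both times. None of the 9 passed at either time (edgeR; 5 at 1 month and 3 at 1 week had an unadjusted p under 0.05), 6 had a log2 fold change above 0 at 1 month and 9 at 1 week, and the part of endothelium in the Lrrc32 values was not tested. KO replicate 3 of 1 week had the highest endothelial sum of that time, 535 CPM, and the lowest Lrrc32. Foxp3, which defines regulatory T cells, had 0 or 1 count in each library. The 6 platelet and megakaryocyte markers summed to 82.5 to 123.0 CPM in the WT and 45.6 to 67.3 CPM in the KO at 1 month. This gap was that of Gp1bb, at 67.8 CPM in the WT and 18.6 CPM in the KO on average, while Pf4 was at 23.7 and 22.2, Itgb3 at 7.98 and 6.83 and Itga2b at 3.58 and 5.24 CPM. The 10 fibroblast markers summed to 9939 to 13413 CPM in the WT and 8039 to 9839 CPM in the KO at 1 month, and 1 of 9 tested, Pdgfrb, was higher in the KO (log2 fold change 1.30, SE 0.24, edgeR adjusted p = 0.0218).

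In the group of genes that store and activate TGF-beta, 1 of 23 tested passed at 1 month and was higher (0.997% of all genes), and 0 of 25 passed at 1 week (0.0627% of all genes). The gene was Ltbp4, which anchors latent TGF-beta in the matrix, at 145 ± 26.3 CPM in the WT and 305 ± 92.3 CPM in the KO (SD, n = 3), with a log2 fold change of 0.99 (edgeR adjusted p = 0.0476, SE 0.24). The list's medians were 0.22 at 1 month and 0.78 at 1 week. Tgfb1, the cargo of Lrrc32, had log2 fold changes of −0.54 (SE 0.47, edgeR adjusted p = 0.520) at 1 month and 1.27 (SE 0.88, edgeR adjusted p = 0.510) at 1 week. Nrros, a relative of Lrrc32 that serves macrophages and microglia and is named Lrrc33 in the tables, had −0.31 (SE 0.26) and −0.33 (SE 0.48).

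Greb1 was higher in the KO by a similar factor at both times. Genotype and sex chromosome cannot be told apart for its values at 1 week or within batch 3 at 1 month. It lies at chr12:16670615-16800886 on the minus strand and overlaps Gm48140 on the other strand. At 1 month its level was 1.37, 1.75 and 5.03 CPM in the WT (7, 10 and 33 counts) and 11.3, 20.3 and 9.37 CPM in the KO (91, 124 and 60 counts). The KO was above the other 9 libraries, and WT replicate 3 was well above the other WT libraries. The KO was 5.04-fold higher (log2 fold change 2.33, SE 0.50), with 3.08 within batch 2 and 0.86 within batch 3. With 1 library left out the value ran from 1.93 without KO replicate 2 to 3.26 without KO replicate 3. In the latter fit batch 3 holds only the WT, so the batch term leaves the contrast to batch 2, which alone also gave 3.26. At 1 week the WT was at 1.10, 0.688 and 1.31 CPM (9, 6 and 12 counts) and the KO at 5.79, 7.01 and 1.54 CPM (43, 65 and 8 counts). The KO was above the WT in every library, by a narrow margin in KO replicate 3. On the log2 scale the difference was 2.26 (SE 0.64), with an interval of 2 SE from 0.98 to 3.55, and it did not pass over all genes (edgeR adjusted p = 0.176, unadjusted p = 0.00892). Without KO replicate 3 it passed, with a log2 fold change of 2.62 (edgeR adjusted p = 0.0360), and it passed with DESeq2 on all libraries (2.27, adjusted p = 0.0216). Over all 13 alternatives the adjusted p ran from 0.0216 to 0.582, and it passed in these 2.

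The estrogen response list was read beside Greb1. Tamoxifen is itself a ligand of the estrogen receptor, and both genotypes received it. Of 17 tested at 1 month 1 passed, and it was lower (1.22% of all genes): Ctsd, a lysosomal protease known as an estrogen target, was at 3695 ± 1485 CPM in the WT and 1344 ± 193 CPM in the KO (SD, n = 3), with a log2 fold change of −1.45 (edgeR adjusted p = 0.0222, SE 0.27). Of 19 tested at 1 week 0 passed (0.0627% of all genes). The medians were 0.22 and −0.33. Esr1, the estrogen receptor that Greb1 binds, was at 1.05 ± 1.21 CPM in the WT and 1.84 ± 0.383 CPM in the KO of 1 month and at 6.004 ± 1.02 and 2.49 ± 2.20 CPM at 1 week, so Esr1 and Greb1 did not lie in the same order over the 4 groups. Its log2 fold changes were 0.94 (SE 0.71, edgeR adjusted p = 0.465) and −1.19 (SE 0.77, edgeR adjusted p = 0.483).

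Thsd4 was the only one of the 7 with a smaller fold change at 1 month than at 1 week. It lies at chr9:59966931-60522046 on the minus strand and overlaps 2010001M07Rik on the other strand. At 1 week its level was 17.2, 26.03 and 20.6 CPM in the WT and 56.1, 83.2 and 101.1 CPM in the KO. The groups were far apart, with the lowest KO library above the highest WT library by more than the whole WT range. Thsd4 was 3.94-fold higher at 1 week (log2 fold change 1.98, SE 0.35) and missed the threshold (edgeR adjusted p = 0.0937, unadjusted p = 6.10e-04). It passed with DESeq2 (1.99, adjusted p = 1.1e-04), with 1 fit of all 12 libraries (1.96, edgeR adjusted p = 0.0178) and without KO replicate 3 (1.71, edgeR adjusted p = 0.0352). It did not pass in the other 10 of 13 alternatives, where the adjusted p reached 0.507 without WT replicate 3. At 1 month the WT was at 8.21, 16.8 and 29.3 CPM and the KO at 28.0, 40.3 and 85.4 CPM. WT replicate 3 was above KO replicate 1, which is of another batch. Within batch 2 and within batch 3 the KO was above the WT, by 1.49 and 1.54 on the log2 scale, and the fitted log2 fold change was 1.43 (SE 0.28). With 1 library left out the value ran from 1.199 without WT replicate 1 to 1.77 without WT replicate 2.

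Other matrix genes had mostly positive values at 1 week and a median near 0 at 1 month. Of 18 tested genes of microfibrils and elastic fibres 1 passed at 1 month (1.22% of all genes called lower), Fbln2, a glycoprotein that binds fibrillin, and it was lower in the KO: 65.1 ± 17.0 CPM in the WT and 26.7 ± 12.3 CPM in the KO (SD, n = 3), or −1.34 on the log2 scale (SE 0.25, edgeR adjusted p = 0.0212). The median was −0.00 at 1 month. At 1 week 0 of 21 passed (edgeR, against 0.0627% of all genes), 17 of the 21 had a log2 fold change above 0, and the median was 1.04, against 0.02 over all genes. Fbn1, the microfibril backbone that Thsd4 binds, was at 59.1 ± 6.002 CPM in the WT and 257 ± 86.9 CPM in the KO of 1 week (log2 fold change 2.19, SE 0.36, edgeR adjusted p = 0.0927), and at 69.2 ± 27.7 and 67.7 ± 16.6 CPM at 1 month (log2 fold change 0.00, SE 0.29). The fibroblast markers moved with this at 1 week, when 9 of 9 tested had a log2 fold change above 0 (median 1.30) and their sum was 3783 to 5748 CPM in the WT and 5059 to 10327 CPM in the KO. Smooth muscle markers moved with it too, with 7 of 8 above 0 (median 1.51) and sums of 120.1 to 299.96 CPM in the WT and 367, 1079 and 941 CPM in the KO, as did the endothelial markers above. None of these markers passed (edgeR), and their part in the 1 week values of Thsd4 was not tested. KO replicate 3, with the highest Thsd4 of 1 week, had the lowest fibroblast sum of the KO (5059 CPM), the highest endothelial sum (535 CPM) and the middle smooth muscle sum.

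Whether the difference was already present at 1 week was asked of all 7 genes with the contrast the choice did not use. In that contrast genotype and sex chromosome cannot be told apart. The log2 fold change at 1 week was above 0 for all 7 genes (51.5% of all genes tested), with a median of 0.91. None of the 7 had an edgeR adjusted p under 0.05, and over all 12754 genes 2 were called higher (0.0157%) and 6 lower (0.047%). Xist was 1 of the 2 and the Y-linked markers 4 of the 6. In data simulated with the spread of these libraries, the 1 week fit called 25 of 200 genes changed 4-fold. A gene that was not called at 1 week can therefore still differ. At an unadjusted p of 0.05, 2 of 7 passed, Greb1 and Thsd4, against 15.5% of all genes. The KO libraries lay above all WT libraries for the same 2 genes, against 12.4% of all genes. DESeq2 also called 2 of the 7, and it called 957 genes in all. For all genes called higher in the KO at 1 month, the 7 included, the 1 week values did not lean to one side. Of the 121, 118 were tested at 1 week, 59 of them (50%) were above 0, their median was −0.00, and 0 were called higher. The 7 genes were picked with results of these data known, so their position among those 118 is a description.

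**Figure D2:**
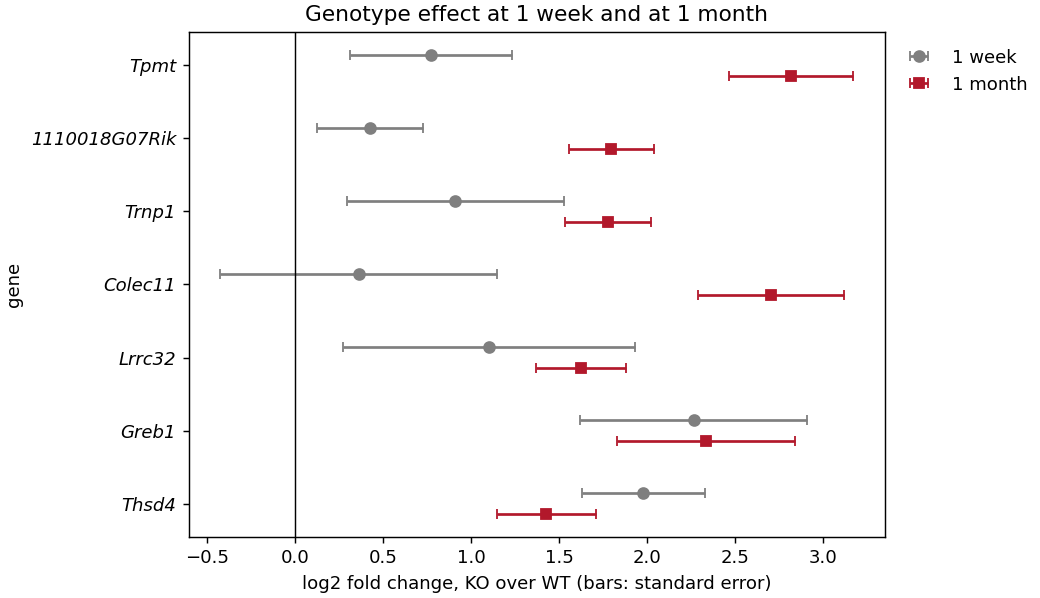
Log2 fold change, KO against WT, of the 7 genes at 1 week and at 1 month, with bars of 1 SE (n = 3 libraries per group). At 1 week the values run from 0.36 (Colec11) to 2.26 (Greb1), and at 1 month from 1.43 (Thsd4) to 2.82 (Tpmt).

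The genotype effects of the 2 times were set against each other in 1 fit. The test of the difference shares the 1 month contrast with the choice of the genes, which favours larger values at 1 month. The times also differ in batch and in sex chromosomes. Genotype and sex chromosome go together in all libraries of 1 week but only in batch 3 at 1 month. A change of the genotype effect with time cannot be told apart from these. The 1 month value minus the 1 week value, on the log2 scale, was 2.35 (SE 0.88, edgeR adjusted p = 0.190) for Colec11, 2.07 (SE 0.61, edgeR adjusted p = 0.134) for Tpmt and 1.39 (SE 0.38, edgeR adjusted p = 0.111) for 1110018G07Rik. It was 0.88 (SE 0.67, edgeR adjusted p = 0.466) for Trnp1 and 0.51 (SE 0.95, edgeR adjusted p = 0.782) for Lrrc32. Greb1, at 0.15 (SE 0.97, edgeR adjusted p = 0.942), and Thsd4, at −0.53 (SE 0.48, edgeR adjusted p = 0.542), had the values nearest to 0 or below it. None of the 7 passed, and with standard errors of 0.38 to 0.97 this does not show that the effects at the 2 times are alike. In simulated data the same test called 3 of 200 genes changed 4-fold. Over all genes edgeR called 0 of 13122 (0%), with 2611 (19.9%) at an unadjusted p under 0.05, and DESeq2 called 917, with Tpmt (2.03, adjusted p = 0.0302) and 1110018G07Rik (1.34, adjusted p = 0.0269) among them. Without KO replicate 3 of 1 week edgeR called 1110018G07Rik (1.59, adjusted p = 0.0311).

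KO replicate 3 of 1 week split the genes. It held the lowest KO level of that time for Tpmt, Trnp1, Colec11, Lrrc32 and Greb1 and the highest for 1110018G07Rik and Thsd4. This library had the lowest depth of the 6, with 5620137 counts. Its 10 dissociation stress markers summed to 1694 CPM, against 300.2 to 505 CPM in the other 5 libraries, and its leukocyte (621 CPM) and platelet (208.0 CPM) sums were the highest of the 6. Their part in its values was not tested. The plot of 1 week fold changes with each library left out shows how far this and the other single libraries carry the values.

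**Figure D3:**
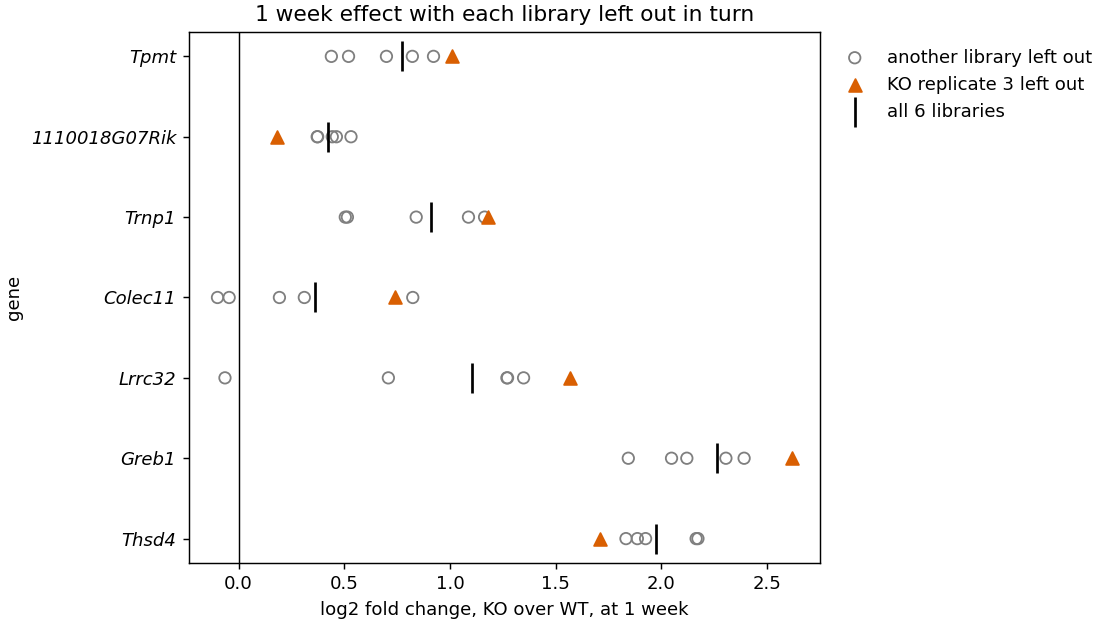
Log2 fold change of each gene at 1 week, KO over WT, with all 6 libraries (bars), without KO replicate 3 (triangles) and without each other library in turn (circles). Lrrc32 falls to −0.065 without KO replicate 2 and Colec11 to −0.10 without KO replicate 1, and Greb1 and Thsd4 keep the highest values, from 1.84 and 1.71 on.

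Because 3′ counts can run on into a gene downstream, the surroundings of each gene were examined. No gene on the same strand lay within 2 kb of the 3′ end of any of the 7, and the overlapping genes named above are on the opposite strand, which this sense-stranded library type keeps apart when the counting uses strand. Of the 5 nearest tested genes on each side of the 7, 70 in all, 0 were called higher at 1 month (against 0.997% of all genes) and 1 was called lower (against 1.22%). The lower one was Dgat2, a triglyceride synthesis enzyme and the fourth tested gene beyond Lrrc32, at −1.204 on the log2 scale (SE 0.20, edgeR adjusted p = 0.0113). Of the 70, 38 were above 0 at 1 month (median 0.12) and 36 at 1 week (median 0.06), and 0 were called at 1 week. Counts of calls this small are near the shares over all genes and are no result about the neighbours. Around Tpmt 9 of 10 were above 0 at 1 month, with a median of 0.64, from −0.02 for Dek to 1.19 for Fam120a, and none of these passed. Kdm1b, which overlaps Tpmt, had a log2 fold change of 0.66 (edgeR adjusted p = 0.156, SE 0.25). Around Thsd4 3 of 10 were above 0, with a median of −0.23.

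**Figure D4:**
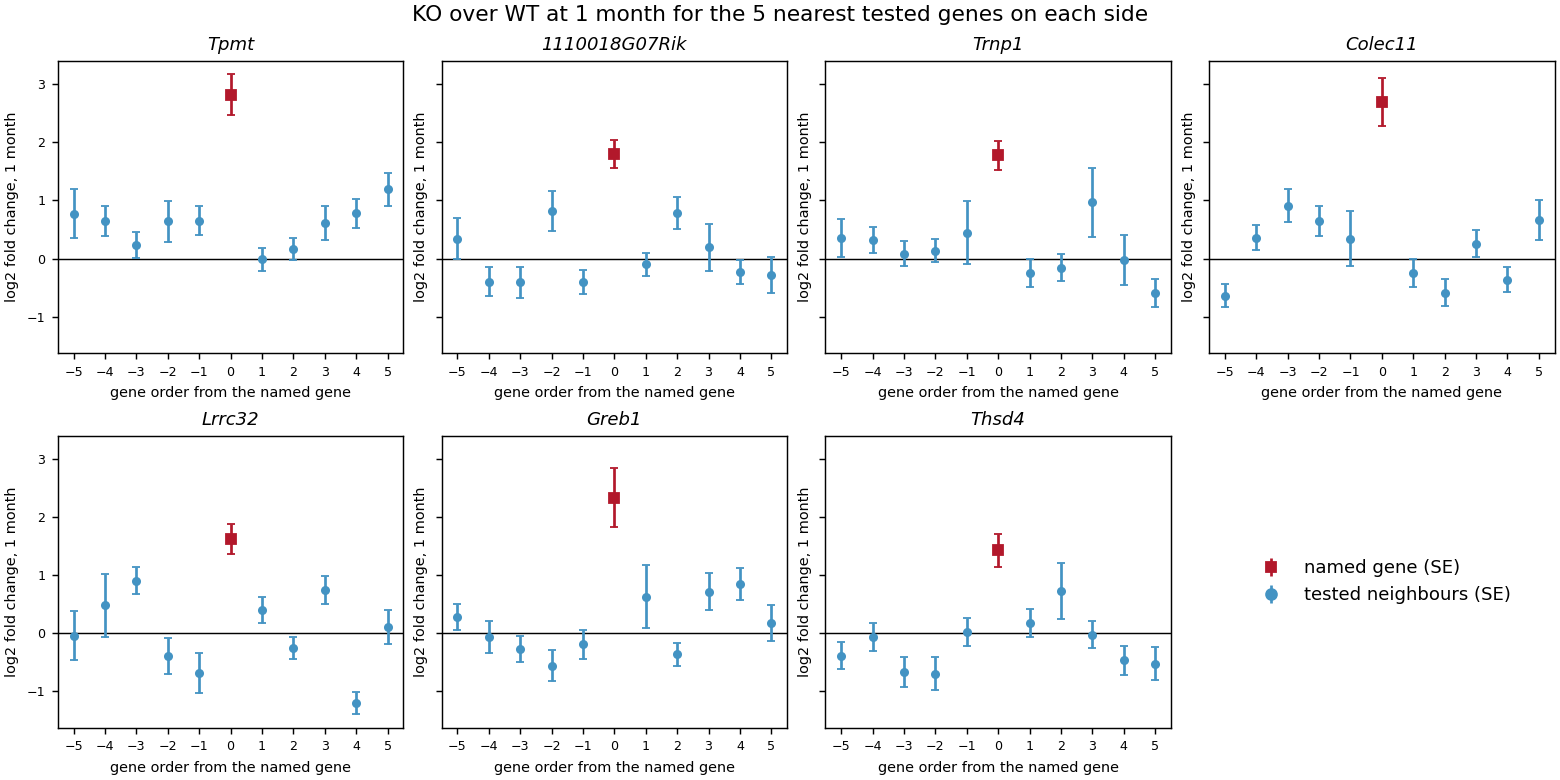
Log2 fold change at 1 month of the 5 nearest tested genes on each side of each of the 7 genes, against their order along the chromosome, with the gene itself as a square in the middle and bars of 1 SE. The 70 neighbours lie between −1.204 and 1.19, below the values of the 7 genes in the middle, which start at 1.43. The 7 genes were picked for high values in this contrast, so their place above the neighbours follows from the choice.

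**Figure D5:**
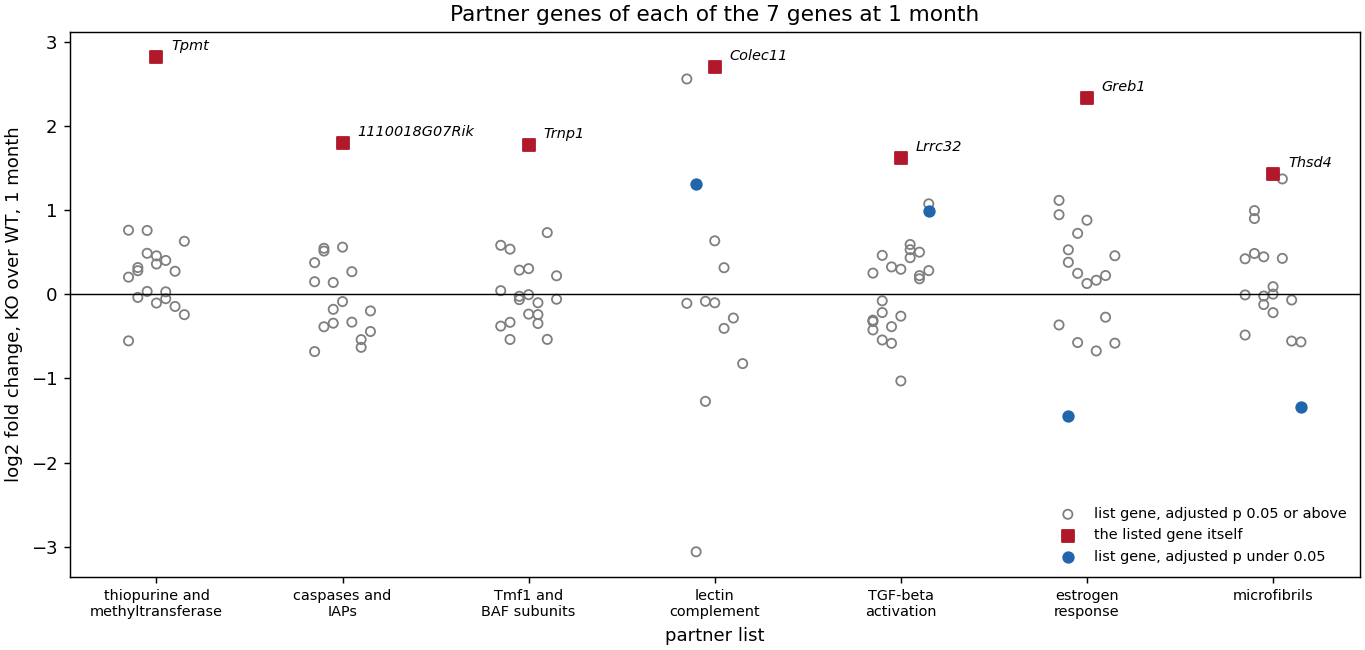
Log2 fold change at 1 month, KO over WT, of the tested genes (circles, filled where the edgeR adjusted p is under 0.05) in the list drawn up for each of the 7 genes, with that gene as a square. The medians of the lists lie between −0.18 and 0.27, and the filled points are Serping1, Ltbp4, Ctsd and Fbln2.

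The lists in the plot of partner genes held few calls but more genes at an unadjusted p under 0.05, the level that 21.5% of all genes reached at 1 month and 15.5% at 1 week. At 1 month these were 3 of 19 for the thiopurine list, 1 of 17 for the apoptosis list, 4 of 19 for the Trnp1 list, 5 of 12 for the lectin list, 5 of 23 for the TGF-beta list, 4 of 17 for the estrogen list and 4 of 18 for the microfibril list. At 1 week they were 3 of 19, 5 of 18, 1 of 19, 5 of 11, 9 of 25, 1 of 19 and 10 of 21 in the same order. The lists were drawn up with results of these data known, so these shares are a description.

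The 7 genes were correlated with one another to different degrees over the 12 libraries, which share the 2 genotypes, the 2 times and the batches. All 7 were chosen as high in the KO of 1 month, which is among these libraries. Positive correlations between them therefore follow in part from the choice. Pearson's r of log2 CPM was highest for Trnp1 with Colec11 (0.86) and for Tpmt with 1110018G07Rik (0.85) and lowest for Colec11 with Thsd4 (0.15) and Trnp1 with Thsd4 (0.27). Thsd4, whose highest group was the KO of 1 week, had the lowest correlations with Colec11 and Trnp1, whose highest group was the KO of 1 month. Among all genes in the 1 month fit, the one most like Tpmt was Mapk8, the stress kinase JNK1 (r = 0.95), at 19.6 CPM in the WT and 51.8 CPM in the KO of 1 month on average, followed by Abhd1 (r = 0.92). Trnp1 was most like Vps39, a subunit of the HOPS tethering complex of lysosomes (r = 0.91), and Ptpdc1 (r = 0.90). Colec11 was most like Scarb1, the HDL receptor (r = 0.91), and Dennd3 (r = 0.91). Lrrc32 was most like Prkcdbp, a caveolar protein (r = 0.95), and Nap1l5 (r = 0.95). For 1110018G07Rik the nearest were Chrnb1 (r = 0.89) and Msl1 (r = 0.88), for Greb1 Magee1 (r = 0.90) and Rpa1 (r = 0.89), and for Thsd4 Rgs3 and Fgd5 (r = 0.94 each). Of these 14 genes, Mapk8, Abhd1, Vps39, Dennd3 and Prkcdbp were themselves called higher in the KO at 1 month, with log2 fold changes of 1.37, 1.79, 1.04, 1.79 and 1.05 (0.997% of all genes were called higher). They were taken for following genes chosen as high there, so these calls follow from the choice.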

How the data were processed

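Total RNA of peeled mouse urothelium was sequenced from transcript 3′ ends (QuantSeq FWD) in 12 libraries. The deposited values are raw counts per gene symbol, made by the authors with HTSeq, and per the submitters' processing notes Bowtie, TopHat, DESeq2 and the mm10 build were used. The labels' protocols name the stranded counting setting, while versions and the gene annotation are not given in the sources used here. For 1 library, WT replicate 3 of 1 month, the animal number of the title and that of the library name differ, and its column was matched by the library name.

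The 7 genes and the gene lists were chosen with earlier results of these data known. Counts were scaled by TMM and tested with edgeR 4.0.16 (quasi-likelihood, robust, filterByExpr, Benjamini-Hochberg, two-sided, threshold 0.05) under R 4.3.3, separately at 1 week (12754 genes) and at 1 month with batch as a covariate (12139 genes), and as an interaction over all 12 libraries (13122 genes). SE is the log2 fold change over the root of the F statistic. CPM are counts per 1000000 of the TMM-scaled total, with a prior count of 2 on the log2 scale. The scripts were tested on simulated data. No 2 libraries of the same group were alike within counting noise, and the mice have separate numbers in the labels. Pairs from different groups were not compared in this way. The intervals of 2 SE come from the edgeR fit, whose SE includes the spread between libraries. The reads carry no molecular identifiers. Alternatives were RLE factors, library size alone, other count filters, non-robust dispersion, DESeq2 1.42.0, 1 fit of all libraries, other uses of batch, and leaving out each library. Loci come from GENCODE on GRCm38 and promoters from RefSeq on GRCm38.p6. Of the table's symbols 20940 matched GENCODE directly, 1917 through RefSeq synonyms and 480 not at all. Genes named beside the 7 were Stag2, 1 or 2 set partners per list, up to 3 called genes per list and time, called neighbours, the 2 genes most correlated with each, and markers. A few neighbours of Tpmt were named after their values were seen.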

Additional observations from a re-analysis of the deposited data

How the results depend on the processing

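The log2 fold changes of the 7 genes at 1 month were above 0 under every alternative run, which their choice largely fixes. At 1 week those of Tpmt, 1110018G07Rik, Trnp1, Greb1 and Thsd4 were above 0 under every alternative too. How many genes passed depended on the fit. At 1 week 8 genes passed with edgeR, 62 without a filter on low counts, 957 with DESeq2 and 553 in 1 fit of all 12 libraries. At 1 month 269 passed, against 561 with library size only, 1276 without a filter, 768 with DESeq2, 1474 in batch 2 alone, and 0 in 1 fit of all 12 libraries or without the batch covariate. For the difference between the times 0 passed, against 137 without a filter and 917 with DESeq2. Leaving out 1 library gave 0 to 320 genes at 1 week, 45 to 1522 at 1 month and 0 to 440 for the difference. The most genes passed without KO replicate 3 at 1 week, WT replicate 3 at 1 month and KO replicate 2 of 1 week for the difference. Of the 7 genes, 0 passed at 1 week, 2 with DESeq2, 1 in 1 fit of all 12 libraries, and 0 to 2 with a library left out. At 1 month all 7 are in the called set, as their choice fixes, with 0 in 1 fit of all 12 libraries, 0 without the batch covariate, and 5 to 7 with a library left out. For the difference 0 passed, 2 with DESeq2 and 0 to 1 with a library left out. With a library left out, the log2 fold change at 1 week ranged from −0.10 to 0.82 for Colec11 and from −0.065 to 1.57 for Lrrc32, and the difference between the times ranged from −0.28 to 1.00 for Greb1. Some alternatives hold fewer libraries, some hold more or fewer genes, and others hold the same libraries and genes as the main fit. Without WT or KO replicate 3 of 1 month (1522 and 1513 genes), batch 3 is left with a single genotype. The batch term then leaves the 1 month contrast to batch 2, which alone gave 1474 genes. Beyond this the cause of the changes was not tested. With batch 3 alone the values were 2.59 for Colec11 and 0.86 for Greb1. Colec11 had too few counts to be tested at 1 week with a minimum mean of 20 counts. No paired analysis was possible because the replicate numbers were given in accession order and pair no mice. Depth limits Colec11 and Greb1, with 1 to 13 and 6 to 65 counts per library at 1 week.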

Other observations

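Groups of genes outside the 7 moved between the genotypes in the same libraries. At 1 month 4 of 10 tested leukocyte markers were lower in the KO (edgeR, against 1.22% of all genes): Cd74, the invariant chain of antigen presentation (log2 fold change −1.76, SE 0.23, edgeR adjusted p = 0.00344), C1qa (−1.95, SE 0.31, edgeR adjusted p = 0.0121), C1qb (−1.38, SE 0.28, edgeR adjusted p = 0.0302) and Csf1r, the receptor of macrophage growth factor (−1.13, SE 0.26, edgeR adjusted p = 0.0429). Their 15 markers summed to 724 to 1420 CPM in the WT and 367 to 460 CPM in the KO. Krt20, the keratin of umbrella cells, was lower at 1 month (−1.76, SE 0.25, edgeR adjusted p = 0.00601), as was Uchl1 (−2.44, SE 0.41, edgeR adjusted p = 0.0196). At 1 week 0 of 11 tested leukocyte markers passed, and 9 of the 11 were above 0.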
